A study of Mus musculus with 2 samples.

Results

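Interferon-stimulated macrophages of CT26 tumours, called ISG macrophages here after their interferon-stimulated genes, were defined by reads of 4 genes. A barcode was taken as a macrophage when it had at least 200 genes, at most 10% mitochondrial UMIs, at least 2000 UMIs, at least 2 UMIs of Csf1r and Adgre1 together, and no UMI of Cd3e or Ncr1. It was placed among the ISG macrophages when Rsad2, Ifit1, Ifit2 and Ifit3 together made up at least 0.1% of its UMIs, and among the other macrophages when they made up less. The rule found 306 ISG macrophages among 3510 macrophages, 10602 barcodes that met the depth and mitochondrial limits, and 19839 barcodes in all. Of these, 123 came from the PTIR1 library, which had 1459 macrophages, and 183 from the Mock library, which had 2051. Since these 4 genes chose the members, their levels and those of genes that accompany them in ISG over other macrophages are given as a description.

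The study set CT26 tumours that express PTIR1 against CT26 tumours with a mock construct, both in mice of the inbred strain BALB/c. CT26 cells come from a BALB/c colon carcinoma and form tumours when injected into that strain, and the series title names PTIR1 a suppressor of the immunoproteasome. Cells from each kind of tumour were captured in droplets and their transcripts counted from the 3' end with unique molecular identifiers (UMIs). There was 1 library per group, and the number of mice behind it, their ages and the day of collection were not given in the sources used here. No test between groups was possible, and intervals are at 95% and reflect the counting error alone. The labels call the source tumour-infiltrating lymphocytes, which macrophages are not, and whether cells were sorted was not given either. The PTIR1 library held 98540561 UMIs with a median of 4933 per barcode, and the Mock library 95166611 UMIs with a median of 2357.

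Type I interferons bind the receptor chains Ifnar1 and Ifnar2, which signal through the kinases Jak1 and Tyk2. A complex that holds Stat2 and Irf9 then binds a promoter element called the interferon-stimulated response element (ISRE) and turns on antiviral genes. Interferon gamma signals through Ifngr1 and Ifngr2 to another element, the gamma-activated site (GAS), and is the stronger inducer of guanylate-binding proteins, Cxcl9 and antigen presentation. Macrophages answer both, and those in tumours can attract T cells through the chemokines Cxcl9 and Cxcl10. Of the 4 genes of the rule, Rsad2 encodes viperin, an enzyme that makes a chain-terminating nucleotide, and the Ifit genes encode proteins that bind foreign RNA.

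The promoters of 3 of the 4 genes of the rule, and of 3 genes the rule did not use, are shown because the ISRE core is the element that many of the genes described below carry. Each is the 250 bases before the annotated start, 5′ to 3′ along the gene, from the RefSeq table for GRCm38.p6. Capitals mark the ISRE core, searched on both strands as GAAA, any 2 bases, GAAA. The windows are Rsad2 at chr12:26456453-26456702, minus strand, Ifit1 at chr19:34640639-34640888, plus strand, Ifit3 at chr19:34583279-34583528, plus strand, Isg15 at chr4:156200819-156201068, minus strand, Cxcl10 at chr5:92348890-92349139, minus strand, and Gbp2 at chr3:142620413-142620662, plus strand.
Rsad2: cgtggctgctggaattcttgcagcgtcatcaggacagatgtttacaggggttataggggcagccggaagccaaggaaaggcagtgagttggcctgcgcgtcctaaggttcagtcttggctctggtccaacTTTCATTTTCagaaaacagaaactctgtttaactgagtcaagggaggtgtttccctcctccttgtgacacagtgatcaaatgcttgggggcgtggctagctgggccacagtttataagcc
Ifit1: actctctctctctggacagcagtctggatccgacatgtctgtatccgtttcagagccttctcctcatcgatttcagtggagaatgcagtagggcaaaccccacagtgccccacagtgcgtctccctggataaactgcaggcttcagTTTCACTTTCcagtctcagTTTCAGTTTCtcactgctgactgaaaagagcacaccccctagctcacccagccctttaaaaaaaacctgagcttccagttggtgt
Ifit3: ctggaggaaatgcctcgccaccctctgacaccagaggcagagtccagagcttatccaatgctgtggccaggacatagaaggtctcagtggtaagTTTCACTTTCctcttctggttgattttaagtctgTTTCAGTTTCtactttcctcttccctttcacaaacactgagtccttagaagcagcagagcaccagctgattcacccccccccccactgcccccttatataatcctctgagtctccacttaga
Isg15: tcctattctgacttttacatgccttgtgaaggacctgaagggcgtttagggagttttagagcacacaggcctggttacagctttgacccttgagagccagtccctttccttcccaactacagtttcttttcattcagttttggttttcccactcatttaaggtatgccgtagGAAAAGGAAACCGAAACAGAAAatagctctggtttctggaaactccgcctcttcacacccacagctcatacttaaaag
Cxcl10: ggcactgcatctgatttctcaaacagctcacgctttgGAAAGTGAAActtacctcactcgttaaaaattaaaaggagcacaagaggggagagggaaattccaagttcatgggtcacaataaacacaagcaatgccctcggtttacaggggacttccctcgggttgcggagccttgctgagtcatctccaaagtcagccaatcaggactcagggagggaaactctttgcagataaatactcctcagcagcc
Gbp2: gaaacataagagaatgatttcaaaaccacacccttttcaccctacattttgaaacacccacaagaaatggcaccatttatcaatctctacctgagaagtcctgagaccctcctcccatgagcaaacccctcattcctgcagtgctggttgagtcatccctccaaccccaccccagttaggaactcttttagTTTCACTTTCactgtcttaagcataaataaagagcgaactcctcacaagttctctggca

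In Rsad2 the core starts at position -120 from the start of the gene, in Ifit1 at -104 and -85, and in Ifit3 at -156 and -122. In these 3 genes and in Gbp2, where it starts at -59, the core lies on the opposite strand, so that it reads as its reverse complement. Isg15 has 3 overlapping cores, at -78, -72 and -66, and Cxcl10 has 1 at -213. Ifit2, the gene of the rule not shown, had no core in either of its 2 annotated windows. The Ifit genes lie side by side on chromosome 19, and Rsad2 lies next to Cmpk2 on chromosome 12. Of 32851 promoter windows of 300 bases, 3.44% held the core. It was found in 10 of 11 matched guanylate-binding and immunity-related GTPase genes, 14 of 27 antiviral effector genes, 4 of 12 sensors, 1 of 5 immunoproteasome genes and 0 of 16 cell cycle genes. The GAS core, searched as TTC, any 3 bases, GAA, was found in 8.30% of all windows and in 6 of the 11 GTPase genes, among them Gbp5 with 2 matches. This pattern is its own reverse complement, and each match was counted once. A match describes the letters of the window and was not tested as a binding site.

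ISG macrophages were a similar part of the macrophages in both tumours. They made up 8.43% (7.06 to 9.98%, exact binomial) of PTIR1 macrophages and 8.92% (7.72 to 10.2%) of Mock macrophages. The log2 ratio of these shares, PTIR1 over Mock, was -0.08 (-0.40 to 0.23). Of all barcodes that met the depth and mitochondrial limits, they were 2.22% in the PTIR1 library and 3.61% in the Mock library, where macrophages as a whole were 26.4% in the PTIR1 library and 40.4% in the Mock library. With 1 library per group, the capture of cells and the tumour cannot be told apart as sources of such shares.

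The 4 genes stood out from a macrophage population in which they were mostly silent, and the limit of 0.1% lay on a long tail. No UMI of the 4 genes, called gate UMIs here, was found in 957 PTIR1 macrophages (65.6%) and 1289 Mock macrophages (62.8%). The share of UMIs in ISG macrophages had its lowest value at 0.102% in the PTIR1 and 0.1002% in the Mock library, its median at 0.382% and 0.425%, and its highest value at 3.05% and 3.75%, in the same order of libraries. Just inside the limit, at 0.1 to 0.12%, lay 12 PTIR1 and 14 Mock barcodes, and just outside, at 0.08 to 0.1%, lay 13 PTIR1 and 22 Mock barcodes. With the limit at 0.05% the share of macrophages was 11.7% in the PTIR1 and 12.6% in the Mock library, and at 0.2% it was 5.89% and 6.68%.

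**Figure D1:**
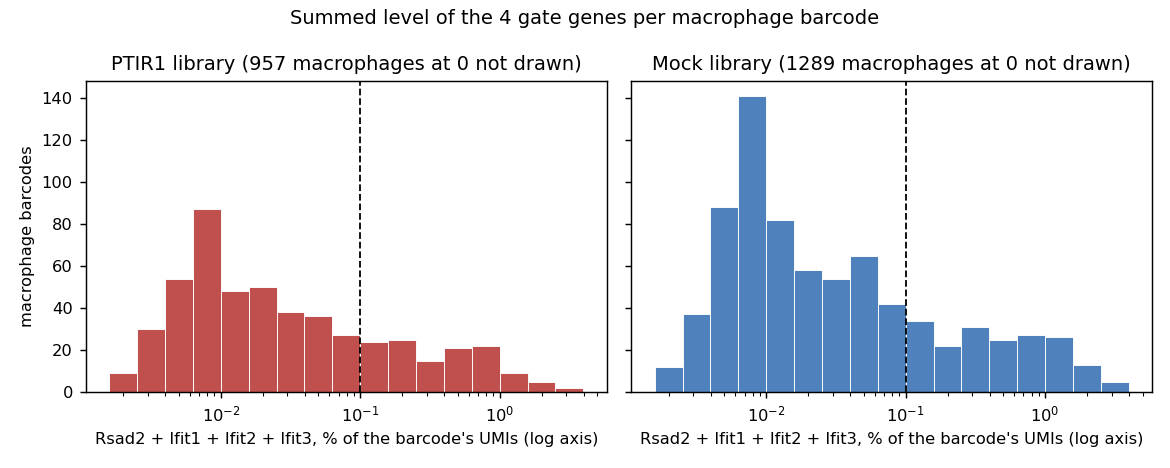
Number of macrophage barcodes (vertical axis) by the percent of their UMIs in Rsad2, Ifit1, Ifit2 and Ifit3 (horizontal axis, log scale) in the PTIR1 and Mock libraries, with the limit of 0.1% marked. Both libraries have a continuous tail past the limit, which holds 123 PTIR1 and 183 Mock barcodes, and most macrophages have no UMI of these genes.

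The 4 genes were mostly present together in ISG macrophages. These were chosen for a high sum of the same genes, so this describes the members and is no separate result. All 4 had a UMI in 93 of 123 PTIR1 ISG macrophages (75.6%) and in 145 of 183 Mock ISG macrophages (79.2%), and 1 alone carried the barcode past the limit in 3 PTIR1 and 3 Mock barcodes. Rsad2 gave 6328 of 10237 gate UMIs (61.8%) in PTIR1 and 11418 of 18717 (61.0%) in Mock ISG macrophages, and it was present in 122 and 181 of them. The summed count per barcode ran from 5 over a median of 54 to 524 in PTIR1 and from 5 over a median of 58 to 566 in Mock ISG macrophages. To read the levels without the reads that chose the members, each UMI was put at random, with equal chance, into 1 of 2 parts. The first part served for choosing and the other for measuring. The barcodes were still chosen by the same 4 genes, so these levels too are a description. Rsad2 then had 3133 CPM (UMIs scaled to a common total) in ISG and 27.8 CPM in other macrophages of the PTIR1 library, and 4080 CPM in ISG and 24.5 CPM in other macrophages of the Mock library. Ifit1, Ifit2 and Ifit3 had 763, 609 and 520 CPM in PTIR1 ISG macrophages and 938, 846 and 781 CPM in Mock ISG macrophages, and between 9.79 and 15.1 CPM in the other macrophages of both libraries.

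Depth was close between the sets compared. ISG macrophages had a median of 14546 UMIs in the PTIR1 and 14201 in the Mock library, and other macrophages 15369.5 in the PTIR1 and 14828.5 in the Mock library. Median mitochondrial shares were 2.004% in PTIR1 and 1.79% in Mock ISG macrophages, and 2.35% in PTIR1 and 2.31% in Mock other macrophages. In all, 30 barcode sequences occurred in both libraries, 0 of them among the ISG macrophages. Among macrophages with 2000 to 5000 UMIs, 11 of 76 PTIR1 barcodes and 10 of 108 Mock barcodes were ISG macrophages, and among those with at least 20000, 34 of 444 PTIR1 and 38 of 549 Mock barcodes. With every macrophage thinned to 2000 UMIs before the rule was applied, the share was 9.66% in the PTIR1 and 10.6% in the Mock library.

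Macrophage markers are given as a description, since the rule itself used Csf1r and Adgre1, whose presence is therefore no support for the name. All 10 markers of the macrophage list, among them Adgre1, Cd68, C1qa, Lyz2 and Mertk, had UMIs in the summed ISG macrophages of both libraries. Not every barcode had each of them, and C1qa was found in 19.5% of PTIR1 and 25.1% of Mock ISG macrophages. Their summed level was 16582 CPM in ISG and 19643 CPM in other macrophages of the PTIR1 library, and 17965 CPM in ISG and 23220 CPM in other macrophages of the Mock library. Csf1r, the receptor for the macrophage growth factor, had 272 CPM in ISG and 295 CPM in other macrophages of the PTIR1 library, and 283 CPM in ISG and 325 CPM in other macrophages of the Mock library. The neutrophil list stood at 2306 CPM in ISG and 1152 CPM in other macrophages of the PTIR1 library, and at 681 CPM in ISG and 539 CPM in other macrophages of the Mock library. It took over 0.5% of the UMIs in 10 of 123 PTIR1 and 6 of 183 Mock ISG macrophages. Among other macrophages it did so in 66 of 1336 PTIR1 and 40 of 1868 Mock barcodes. The list of conventional dendritic cells was at 23.7 CPM in ISG against 66.9 CPM in other PTIR1 macrophages, and at 18.4 CPM in ISG against 51.4 CPM in other Mock macrophages, with Xcr1 at 0 in PTIR1 and at 1 UMI in Mock ISG macrophages, and Zbtb46 and Cd209a at 0 in Mock ISG macrophages. Fibroblast markers summed to 135 CPM in PTIR1 and 4.59 CPM in Mock ISG macrophages, and tumour cell markers to 56.5 CPM in PTIR1 and 19.1 CPM in Mock ISG macrophages. Summed T cell markers had 33.3 CPM in PTIR1 and 16.95 CPM in Mock ISG macrophages, with Cd3e at 0 by the rule, and NK cell markers 143 CPM in PTIR1 and 58.6 CPM in Mock ISG macrophages. B cell markers had 69.6 CPM in PTIR1 and 70.6 CPM in Mock ISG macrophages, and mast cell markers 24.2 CPM in PTIR1 and 38.1 CPM in Mock ISG macrophages. The plasmacytoid dendritic cell list had 856 CPM in PTIR1 and 1095 CPM in Mock ISG macrophages, of which Bst2, itself an antiviral effector, gave 698 CPM and 938 CPM. Over 0.1% of UMIs in markers of another lineage was found in 37 of 123 PTIR1 (30.1%) and 22 of 183 Mock (12.02%) ISG macrophages. Among other macrophages it was found in 367 of 1336 PTIR1 (27.5%) and 312 of 1868 Mock (16.7%) barcodes. Counts of genes, list medians and the ranked genes between the libraries were therefore also computed without these barcodes. They are given below where that moved them most.

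Across all genes, ISG over other macrophages gave ratios of at least 2 for 465 of 10591 genes in the PTIR1 library (4.39%) and for 454 of 10838 in the Mock library (4.19%). Ratios of at most 0.5 were found for 932 PTIR1 genes (8.8%) and 1176 Mock genes (10.9%). These are genes with at least 50 UMIs, with the 8 genes of the rule left out. Counts of members past 2-fold in the gene groups below are to be set beside these shares over all genes. They are descriptions and not tests, because the genes of the rule chose the barcodes. The median log2 ratio of all genes was -0.17 in the PTIR1 and -0.20 in the Mock library, and with ratios divided by that median, 585 genes were higher and 681 lower in the PTIR1 library, and 601 higher and 860 lower in the Mock library. Among 10313 genes measured in both libraries, 313 had a ratio of at least 2 in both, which was 68.6% of the 456 PTIR1 genes and 74.0% of the 423 Mock genes. At most 0.5 in both were 366, which was 42.9% of 853 PTIR1 and 35.5% of 1032 Mock genes.

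The antiviral effectors stood higher in ISG macrophages as a group. All 31 measured genes were higher in ISG macrophages in both libraries, 29 of them past 2-fold in each, with a median log2 ratio of 2.52 in the PTIR1 and 2.36 in the Mock library. Of all genes, 4.39% were past 2-fold higher in the PTIR1 and 4.19% in the Mock library. Isg15, a ubiquitin-like protein attached to other proteins during infection, had 1762 CPM in ISG and 126 CPM in other macrophages of the PTIR1 library, and 2095 CPM in ISG and 143 CPM in other macrophages of the Mock library, which was 14-fold higher (13.3 to 14.7) in the PTIR1 and 14.6-fold higher (14.1 to 15.2) in the Mock library. Cmpk2, a mitochondrial nucleotide kinase and the neighbour of Rsad2, had 457 CPM in ISG and 7.23 CPM in other macrophages of the PTIR1 library, and 581 CPM in ISG and 7.57 CPM in other macrophages of the Mock library. Both libraries kept the sets apart by a wide margin for these genes. Oasl1, a member of the oligoadenylate synthetase-like family, was 12.8-fold higher (11.6 to 14) in the PTIR1 and 17.1-fold higher (15.8 to 18.6) in the Mock library, and Ifi44 was 6.92-fold higher (6.53 to 7.33) and 5.82-fold higher (5.57 to 6.08), in that order. The smallest ratios of the group belonged to Ifitm3 and Zc3hav1. Ifitm3, which blocks viral entry at membranes, had 4501 CPM in ISG and 2555 CPM in other macrophages of the PTIR1 library, and 5316 CPM in ISG and 3112 CPM in other macrophages of the Mock library. The paralogs Ifit3b and Ifit1bl1 were 120.5-fold and 73.6-fold higher in the PTIR1 library and 103-fold and 100.2-fold higher in the Mock library, but near-identical copies can share reads with the genes of the rule, so their values are uncertain.

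Of the 12 genes ranked first among those higher in ISG macrophages, 6 lie outside the antiviral effectors and the chemokines. Usp18, which removes Isg15 from proteins and shuts down the interferon receptor, had 420.3 CPM in ISG and 19.4 CPM in other macrophages of the PTIR1 library, and 473 CPM in ISG and 19.7 CPM in other macrophages of the Mock library. Tnfsf10, the death ligand TRAIL, had 54.5 CPM in ISG and 1.64 CPM in other macrophages of the PTIR1 library, and 70.6 CPM in ISG and 2.87 CPM in other macrophages of the Mock library, and a UMI of it was found in 54 of 123 ISG and 34 of 1336 other PTIR1 macrophages, and in 82 of 183 ISG and 78 of 1868 other Mock macrophages. The DNA-sensor family genes Ifi206 and Ifi208, which are similar in sequence and so uncertain, were 24.2-fold and 16.1-fold higher in the PTIR1 and 28.5-fold and 11.9-fold higher in the Mock library. Lipg, endothelial lipase, was 18.6-fold higher (12.2 to 28.8) in the PTIR1 and 14.8-fold higher (9.74 to 22.5) in the Mock library, and Phf11a was 12-fold higher (10.2 to 14.1) and 13.1-fold higher (11.5 to 15). All 12 stayed past 2-fold in both libraries under every alternative processing that was run.

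Of the 15 measured sensors and adaptors, 10 were past 2-fold higher in the PTIR1 and 11 in the Mock library. Ddx58, which encodes the RNA sensor RIG-I, had 201 CPM in ISG and 29.9 CPM in other macrophages of the PTIR1 library, and 192 CPM in ISG and 30.0 CPM in other macrophages of the Mock library. Ifih1, which encodes the sensor MDA5 for long double-stranded RNA, was 7.86-fold higher (7.03 to 8.78) in the PTIR1 and 7.31-fold higher (6.65 to 8.03) in the Mock library, and the endosomal receptor Tlr3 was 8.86-fold higher (6.67 to 11.7) and 4.74-fold higher (3.64 to 6.14). The adaptor Mavs, through which both RNA sensors signal, had only 5.55 CPM in PTIR1 and 9.53 CPM in Mock ISG macrophages, against 8.95 and 10.4 CPM in the other macrophages. The sensors named here were thus higher in ISG macrophages, while Mavs had ratios below 1 from low levels. Of the 15 genes, 2 in the PTIR1 and 1 in the Mock library had a ratio below 1. In neither library was an interval wholly below 1 (0 genes). Among the transcription factors, 5 of 10 were past 2-fold higher in the PTIR1 and 4 in the Mock library. Irf7, which drives the interferon alpha genes, had 920.4 CPM in ISG and 187 CPM in other macrophages of the PTIR1 library, and 1104 CPM in ISG and 179 CPM in other macrophages of the Mock library. Stat2 had 163 CPM in ISG and 25.8 CPM in other macrophages of the PTIR1 library, and 221 CPM in ISG and 48 CPM in other macrophages of the Mock library, and Irf9, its partner, was 1.61-fold higher (1.32 to 1.94) in the PTIR1 and 1.61-fold higher (1.4 to 1.85) in the Mock library.

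Receptors and kinases of the pathway showed ratios near 1. None of the 7 was past 2-fold in either library, with medians of 0.16 in the PTIR1 and 0.28 in the Mock library. Ifnar1 had 113 CPM in ISG and 90.8 CPM in other macrophages of the PTIR1 library, and 118 CPM in ISG and 96 CPM in other macrophages of the Mock library, and Ifngr1, a chain of the interferon gamma receptor, was 1.35-fold lower (1.19 to 1.54) in the PTIR1 and 1.45-fold lower (1.29 to 1.63) in the Mock library. Of 9 feedback inhibitors, Usp18 and Socs1 alone were past 2-fold higher. Interferon genes themselves were nearly absent from the counts. Ifnb1, which encodes interferon beta, had 17 UMIs in 3 of 123 ISG and 9 UMIs in 5 of 1336 other PTIR1 macrophages, and 33 UMIs in 7 of 183 ISG and 7 UMIs in 4 of 1868 other Mock macrophages. The 7 listed interferon alpha genes had 0 UMIs in all 4 sets. Ifng, which encodes interferon gamma and which T and NK cells make, had 6 UMIs in PTIR1 and 2 UMIs in Mock ISG macrophages.

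Chemokines that attract activated lymphocytes and those that attract monocytes and neutrophils both held members that were past 2-fold higher in ISG macrophages. Cxcl10 had 2437 CPM in ISG and 137 CPM in other macrophages of the PTIR1 library, and 2988 CPM in ISG and 311 CPM in other macrophages of the Mock library, which was 17.7-fold higher (17 to 18.6) in the PTIR1 and 9.6-fold higher (9.32 to 9.88) in the Mock library. Cxcl9, which binds the same receptor, had 318 CPM in ISG and 111 CPM in other macrophages of the PTIR1 library, and 593 CPM in ISG and 458 CPM in other macrophages of the Mock library, which was 2.86-fold higher (2.62 to 3.12) and 1.29-fold higher (1.23 to 1.36) in the same order. The gap between the sets was wide for Cxcl10 in both libraries and narrow for Cxcl9 in the Mock library. Ccl5 was 4.57-fold higher (3.93 to 5.3) in the PTIR1 and 5.89-fold higher (5.37 to 6.46) in the Mock library, and Cxcl16 had ratios near 1. Of the 10 chemokines for monocytes and neutrophils, 3 were past 2-fold higher in the PTIR1 and 2 in the Mock library, where 4.39% and 4.19% of all genes were. A ratio above 1 was found for 6 and 8 of them, and 4 and 2 had an interval wholly below 1. Past 2-fold lower were 0 in the PTIR1 and 1 in the Mock library. Ccl4 had 1874 CPM in ISG and 641 CPM in other macrophages of the PTIR1 library, and 1712 CPM in ISG and 379 CPM in other macrophages of the Mock library, whereas the neutrophil attractant Cxcl2 had 9220 CPM in ISG and 9814 CPM in other macrophages of the PTIR1 library, and 4617 CPM in ISG and 4371 CPM in other macrophages of the Mock library.

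Guanylate-binding proteins and immunity-related GTPases, large GTPases that attack the vacuoles of microbes, were past 2-fold higher in ISG macrophages for all 16 of 16 measured genes in both libraries. Their median log2 ratio was 2.64 in the PTIR1 and 1.84 in the Mock library. Gbp5 had 173 CPM in ISG and 13.9 CPM in other macrophages of the PTIR1 library, and 215 CPM in ISG and 42.8 CPM in other macrophages of the Mock library, and Gbp2 had 267 CPM in ISG and 46.5 CPM in other macrophages of the PTIR1 library, and 391 CPM in ISG and 126 CPM in other macrophages of the Mock library. Irgm1 was 6.31-fold higher (5.6 to 7.1) in the PTIR1 and 4.24-fold higher (3.94 to 4.57) in the Mock library. The lowest level of these genes was in the other macrophages of the PTIR1 library in each case. Immunoproteasome genes, whose products replace subunits of the standard proteasome and change the peptides it makes, were higher by smaller ratios, with a median of 0.90 in the PTIR1 and 0.53 in the Mock library. Psmb8 had 723 CPM in ISG and 387 CPM in other macrophages of the PTIR1 library, and 900.2 CPM in ISG and 622 CPM in other macrophages of the Mock library. Psmb9 had 399.6 CPM in ISG and 179.8 CPM in other macrophages of the PTIR1 library, and 509.6 CPM in ISG and 319.6 CPM in other macrophages of the Mock library, and was the only one of 5 past 2-fold, at 2.22-fold higher (2.06 to 2.4) in the PTIR1 library. Psmb5, the standard subunit that Psmb8 replaces, had 169 CPM in ISG and 192 CPM in other macrophages of the PTIR1 library, and 144 CPM in ISG and 205 CPM in other macrophages of the Mock library, and 0 of 7 constitutive proteasome genes were past 2-fold.

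Antigen presentation on class I molecules was higher with the immunoproteasome, and class II was not. All 12 class I genes were higher in ISG macrophages of the PTIR1 library, 3 past 2-fold, and 11 of 12 in the Mock library, 2 past 2-fold. Tap1, a subunit of the pump that brings peptides to class I, had 225 CPM in ISG and 74.6 CPM in other macrophages of the PTIR1 library, and 236 CPM in ISG and 123 CPM in other macrophages of the Mock library. B2m, the light chain of class I, had 3478 CPM in ISG and 2248 CPM in other macrophages of the PTIR1 library, and 4898 CPM in ISG and 2931 CPM in other macrophages of the Mock library. Of the 9 class II genes, 7 had a ratio below 1 in the PTIR1 and 7 in the Mock library, and 0 were past 2-fold. H2-Ab1, a class II chain, had 814 CPM in ISG and 1000 CPM in other macrophages of the PTIR1 library, and 1343 CPM in ISG and 1513 CPM in other macrophages of the Mock library, and Ciita, the regulator that class II genes need, had 15.6 CPM in ISG and 18.5 CPM in other macrophages of the PTIR1 library, and 25.1 CPM in ISG and 36.8 CPM in other macrophages of the Mock library.

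Among 18 genes by which macrophages regulate T cells, 9 were past 2-fold higher in the PTIR1 and 12 in the Mock library, where 4.39% and 4.19% of all genes were. Past 2-fold lower were 1 in the PTIR1 and 0 in the Mock library, and 5 and 3 had a ratio below 1. The listed genes act in both directions on T cells. Cd274, which encodes the inhibitory ligand PD-L1, had 203 CPM in ISG and 108 CPM in other macrophages of the PTIR1 library, and 258 CPM in ISG and 123 CPM in other macrophages of the Mock library. Il15, which sustains memory T cells and NK cells, had 104 CPM in ISG and 17.1 CPM in other macrophages of the PTIR1 library, and 122 CPM in ISG and 18.9 CPM in other macrophages of the Mock library. Cd40, which receives help from T cells, was 5.13-fold higher (4.09 to 6.39) in the PTIR1 and 4.03-fold higher (3.49 to 4.63) in the Mock library, and Il18bp, a decoy that neutralises Il18, was 4.29-fold higher (3.47 to 5.27) and 4.34-fold higher (3.88 to 4.85). Nos2, the inducible nitric oxide synthase, had a higher ratio in the Mock library. It had 15.1 CPM in ISG and 11.1 CPM in other macrophages of the PTIR1 library, and 102 CPM in ISG and 15.1 CPM in other macrophages of the Mock library, and 1 PTIR1 barcode held 21 of the 30 UMIs of its set. Of 7 inflammatory cytokines, Il6 was 2.11-fold higher (1.73 to 2.56) in the PTIR1 and 2.05-fold higher (1.52 to 2.71) in the Mock library, while Il1b had ratios near 1, with 1734 CPM in ISG and 1859 CPM in other PTIR1 macrophages.

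**Figure D2:**
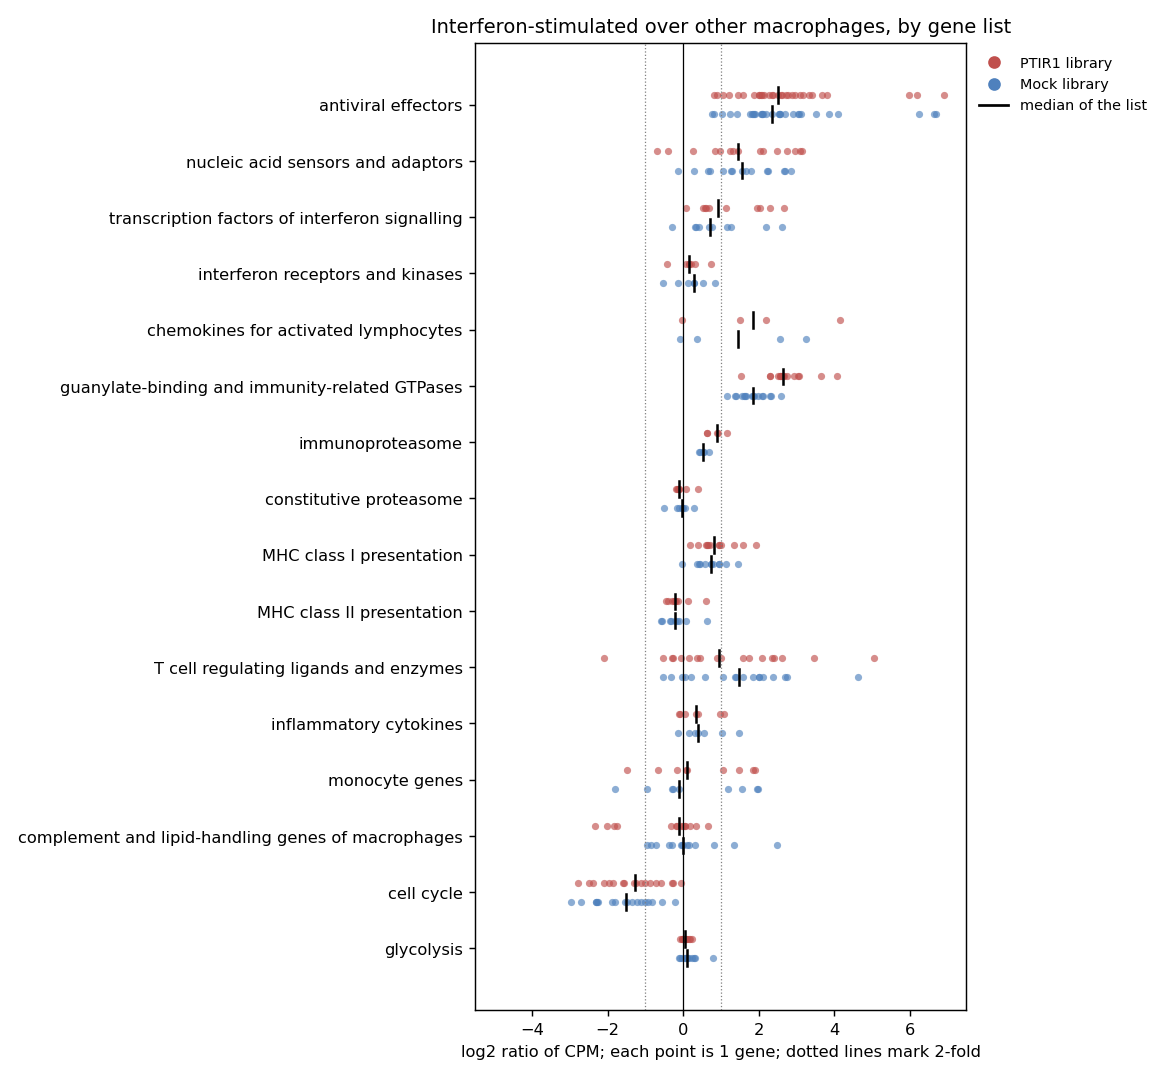
Log2 ratio of CPM in ISG over other macrophages (horizontal axis) for each measured gene of the gene lists (rows), with PTIR1 points above Mock points and the list medians marked. Antiviral effectors (medians 2.52 PTIR1 and 2.36 Mock) and GTPases (2.64 and 1.84) lie to the right, cell cycle genes (-1.26 and -1.52) to the left, and receptors and constitutive proteasome genes near 0.

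Monocyte genes were mixed, with Ly6c2 and Plac8 higher and Cx3cr1 lower in ISG macrophages. Ly6c2, the surface marker of inflammatory monocytes in mice, had 1286 CPM in ISG and 356 CPM in other macrophages of the PTIR1 library, and 2134 CPM in ISG and 540.4 CPM in other macrophages of the Mock library. Plac8 had 2407 CPM in ISG and 860.0 CPM in other macrophages of the PTIR1 library, and 2959 CPM in ISG and 1004 CPM in other macrophages of the Mock library. Cx3cr1, the fractalkine receptor, was 2.82-fold lower (1.94 to 4.26) in the PTIR1 and 3.49-fold lower (2.57 to 4.86) in the Mock library. Ccr2, which monocytes use to leave the bone marrow, had 835 CPM in ISG and 772 CPM in other macrophages of the PTIR1 library, and 695 CPM in ISG and 833 CPM in other macrophages of the Mock library. Fn1, which encodes fibronectin, was 1.58-fold lower (1.51 to 1.64) in the PTIR1 and 1.93-fold lower (1.84 to 2.02) in the Mock library. Over the list of 9, 4 were past 2-fold higher and 1 past 2-fold lower in each library. In the PTIR1 library 6 had a ratio above 1 and 3 below it, with a median log2 ratio of 0.11, and in the Mock library 4 were above and 5 below, with a median of -0.12. Fcgr1, the high-affinity Fc receptor, was 3.04-fold higher (2.9 to 3.19) and Siglec1 2.8-fold higher (2.05 to 3.77) in the PTIR1 library, and they were 2.73-fold higher (2.63 to 2.82) and 2.08-fold higher (1.55 to 2.76) in the Mock library. These were the 2 of 8 macrophage identity genes past 2-fold. Of 14 complement and lipid-handling genes, 4 were past 2-fold lower in the PTIR1 library and 2 past 2-fold higher in the Mock library. Of all genes, 8.8% were past 2-fold lower in the PTIR1 and 4.19% past 2-fold higher in the Mock library. C1qb was 5.03-fold lower (4.05 to 6.34) in the PTIR1 and 1.64-fold lower (1.51 to 1.79) in the Mock library. Tissue-repair and hypoxia genes had medians of -0.09 in the PTIR1 and 0.16 in the Mock library, and Arg1, which breaks down arginine, had 2031 CPM in ISG and 2094 CPM in other macrophages of the PTIR1 library, and 1304 CPM in ISG and 1632 CPM in other macrophages of the Mock library. Retnla and Cd163 were the 2 of 14 past 2-fold lower in the PTIR1 library, where 1 barcode held 865 of the 1034 Retnla UMIs of other macrophages.

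Of the 12 genes ranked first among those lower in ISG macrophages, 2 are lectins of antigen-presenting cells. Mgl2 had 27.2 CPM in ISG and 143 CPM in other macrophages of the PTIR1 library, and 14.8 CPM in ISG and 100.1 CPM in other macrophages of the Mock library. Cd209a had 1.01 CPM in ISG and 30.8 CPM in other PTIR1 macrophages, and 0 UMIs in ISG against 20.5 CPM in other Mock macrophages, which was at least 19.3-fold lower with 3 counts over the set as the floor. Cd81 had 27.2 CPM in ISG and 71.9 CPM in other macrophages of the PTIR1 library, and 22.2 CPM in ISG and 60.7 CPM in other macrophages of the Mock library, and the metallothionein Mt2 had 38.3 CPM in ISG and 94.1 CPM in other macrophages of the PTIR1 library, and 11.3 CPM in ISG and 41.9 CPM in other macrophages of the Mock library. The others were Hmgb3, Ube2c, Mki67, Lgals7, Ednrb, Cd34, Dpysl3 and Cx3cr1, all at low levels. Only 2 of the 12 in the PTIR1 library and 3 of the 9 with a value in the Mock library stayed past 2-fold under every alternative. Levels of Cd209a, Hmgb3, Ube2c, Mki67, Lgals7, Cd34 and Dpysl3 in ISG macrophages were under 5% of those in another cell class. Their levels in other macrophages were not part of this measure, and the part of free RNA from that class was not tested.

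Cell cycle genes were lower as a group. Of 18, 12 were past 2-fold lower in the PTIR1 and 14 in the Mock library, where 8.8% and 10.9% of all genes were. The median log2 ratios of the 18 were -1.26 and -1.52. Mki67, a marker of dividing cells, had 6.06 CPM in ISG and 25.8 CPM in other macrophages of the PTIR1 library, and 7.06 CPM in ISG and 24.8 CPM in other macrophages of the Mock library. The list took over 0.2% of the UMIs in 0 of 123 ISG macrophages, which allows a share of up to 2.95% by the exact interval, against 30 of 1336 other macrophages (2.25%, 1.52 to 3.19%) in the PTIR1 library. In the Mock library this was 0 of 183 ISG macrophages, which allows up to 1.996%, against 49 of 1868 other macrophages (2.62%, 1.95 to 3.45%). The intervals of the ISG and other macrophages overlapped in both libraries. With each barcode given equal weight, the medians were -0.41 in the PTIR1 and -0.93 in the Mock library, and without barcodes with markers of other lineages they were -2.06 and -1.25. Immediate early genes (0.02 in the PTIR1 and -0.03 in the Mock library) and glycolysis genes (0.06 and 0.10) had medians near 0.

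The shares of barcodes with a UMI were also compared at a fixed depth. With each barcode thinned to 2000 UMIs, Isg15 was found in 83.7% of ISG and 17.4% of other macrophages of the PTIR1 library, and in 88.5% of ISG and 18.8% of other macrophages of the Mock library. B cells, which have little of it, gave 3.7% in the PTIR1 and 3.4% in the Mock library at the same depth. Before thinning, the shares were 95.1% of ISG and 47.9% of other PTIR1 macrophages, and 98.4% of ISG and 51.7% of other Mock macrophages. Cxcl10 was found in 65.9% of ISG, 8.68% of other macrophages and 4.23% of B cells of the PTIR1 library, and in 55.7%, 14.9% and 5.24% of the same sets of the Mock library. The intervals of its share overlapped between the libraries in ISG macrophages, at 56.8 to 74.2% in PTIR1 and 48.2 to 63.1% in Mock. In other macrophages they did not overlap, at 7.23 to 10.3% in PTIR1 and 13.3 to 16.6% in Mock. Fcgr1 was found in 85.4% of ISG and 44.7% of other PTIR1 macrophages, and in 84.7% of ISG and 57.7% of other Mock macrophages. Tnfsf10 was found in 11.4% of ISG, 0.374% of other macrophages and 0.529% of B cells of the PTIR1 library, and in 12% of ISG, 0.375% of other macrophages and 0.262% of B cells of the Mock library. Median depth before thinning was 4600 UMIs in PTIR1 and 4430 UMIs in Mock B cells. No barcode was too shallow to thin, since the rule asks for 2000 UMIs.

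To see how the transcripts vary within the macrophages, they were placed in 7 bins by the gate share, from no gate UMI to at least 1% of UMIs. The bins held 957, 332, 47, 37, 40, 30 and 16 PTIR1 barcodes and 1289, 503, 76, 46, 55, 38 and 44 Mock barcodes, so the highest PTIR1 bin is thinly filled. From the lowest to the highest bin, Isg15 had 54.7, 212, 760.2, 1087, 1472, 2440 and 3273 CPM in the PTIR1 library and 64.5, 220.2, 842, 1186, 1621, 2456 and 3449 CPM in the Mock library. Isg15 was already higher in macrophages below the limit that had any gate UMI, and it went on increasing past it. Cxcl10 had 83.1, 172, 882, 872, 1771, 3280 and 7891 CPM in the PTIR1 library and 233, 425, 715, 872, 1548, 3640 and 6796 CPM in the Mock library. Psmb9 had 148, 228, 388, 371, 378, 457 and 419 CPM in the PTIR1 library and 265, 405, 559, 495, 493, 507 and 554 CPM in the Mock library, with most of the increase below the limit. H2-Ab1 had 1002, 916, 1651, 784, 1078, 635 and 457 CPM in the PTIR1 library and 1333, 1751, 2637, 1569, 1495, 1245 and 968 CPM in the Mock library. Its highest level was in the bin just below the limit and its lowest in the highest bin, in both libraries. C1qa, a chain of the complement component that starts the classical pathway, had 266, 356, 487, 121, 30.3, 96.2 and 5.38 CPM in the PTIR1 library and 462, 567, 512, 558, 71.8, 164 and 227 CPM in the Mock library, with lower levels past the limit in the PTIR1 library and past 0.2% in the Mock library.

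**Figure D3:**
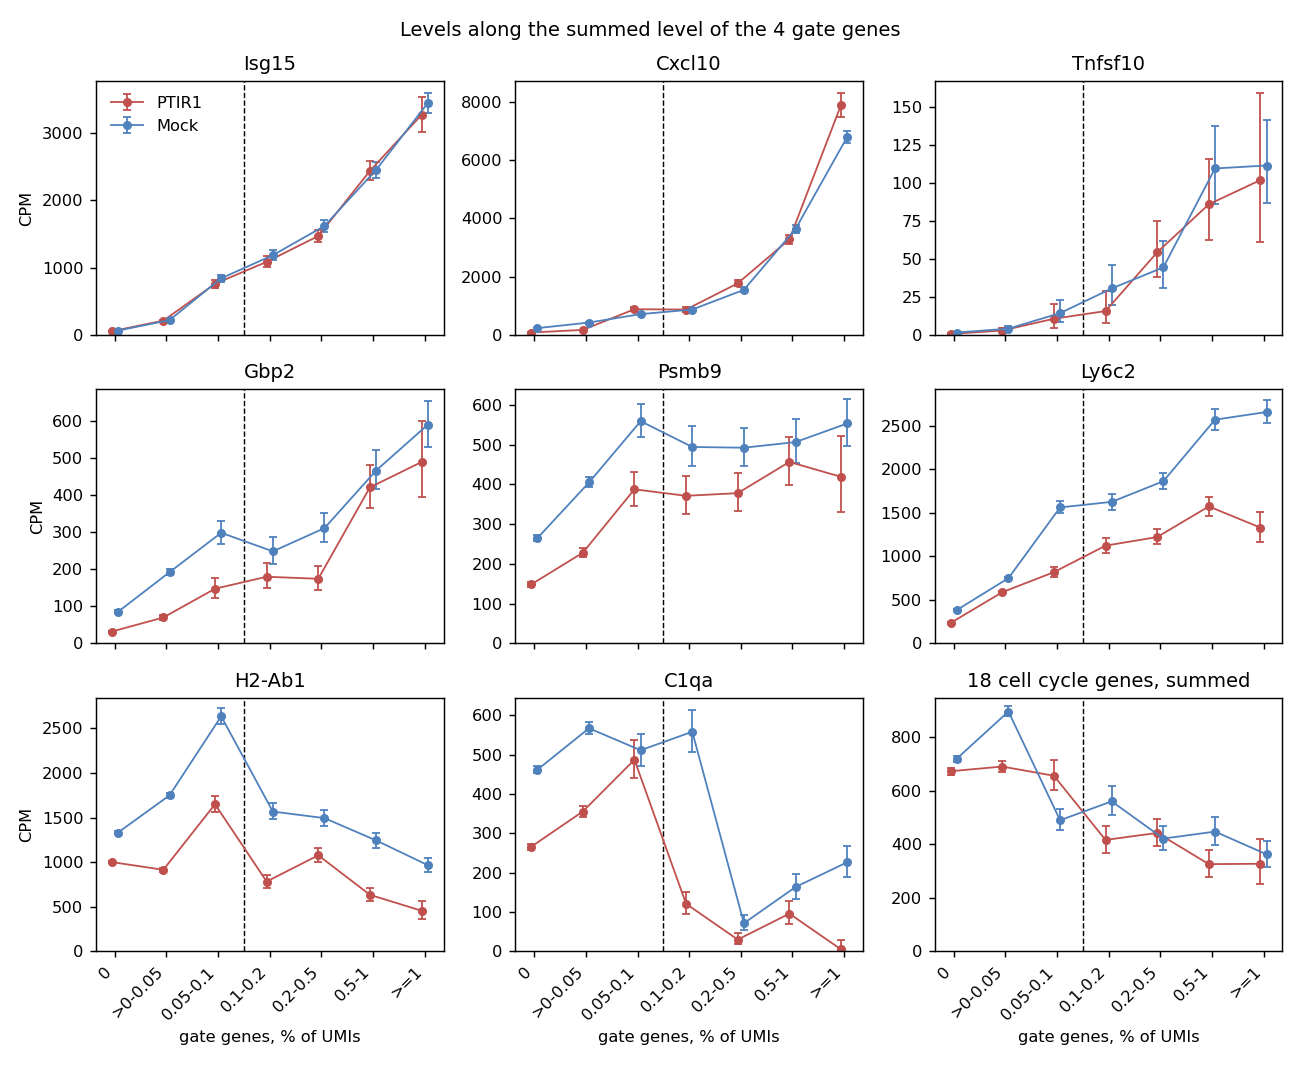
CPM (vertical axes, linear) of 8 genes and of the summed cell cycle list in 7 bins of macrophages by the percent of UMIs in the 4 genes of the rule (horizontal axis, low to high), for the PTIR1 and Mock libraries, with exact Poisson intervals as bars and the limit of 0.1% as a dashed line. Isg15 and Cxcl10 are highest in the highest bin, at 3273 and 7891 CPM in PTIR1 and 3449 and 6796 CPM in Mock macrophages, while H2-Ab1 peaks in the bin from 0.05 to 0.1%.

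The second comparison asked how ISG macrophages differed between PTIR1 and Mock tumours. Across 6847 genes, 103 had a ratio of at least 2 (1.5%) and 81 a ratio of at most 0.5 (1.18%), PTIR1 over Mock, and the median log2 ratio was -0.02. Without barcodes that had markers of other lineages, 68 genes were past 2-fold higher and 88 past 2-fold lower, and with dendritic cell markers left out too 62 and 90, so which direction held more genes depended on these barcodes. Among other macrophages, 412 of 11715 genes had a ratio of at least 2 (3.52%) and 104 of at most 0.5 (0.888%), with the same median of -0.02. The antiviral effectors were close to each other between the tumours. Past 2-fold were 0 of 31 in ISG macrophages and 0 in other macrophages, and the medians were -0.21 in ISG and -0.26 in other macrophages. Isg15 was 1.19-fold lower (1.14 to 1.24) in PTIR1 than in Mock ISG macrophages, Irf7 1.2-fold lower (1.13 to 1.27) and Usp18 1.13-fold lower (1.03 to 1.23). Most members were slightly lower in the PTIR1 library, 27 of 31 in ISG and 26 in other macrophages.

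The GTPases were lower in the PTIR1 library, by less in ISG than in other macrophages. In ISG macrophages 2 of 16 were past 2-fold lower, Gbp8 and Iigp1, where 1.18% of all genes were, and the median was -0.60. In other macrophages 14 of 16 were past 2-fold lower in the PTIR1 than in the Mock library, where 0.888% of all genes were, and the median log2 ratio was -1.43. Gbp5 was 1.24-fold lower (1.09 to 1.42) in PTIR1 than in Mock ISG macrophages and 3.09-fold lower (2.73 to 3.49) in PTIR1 than in Mock other macrophages. For Gbp2b these values were 1.52-fold lower (1.41 to 1.64) in ISG and 3.32-fold lower (3.16 to 3.5) in other macrophages, and for Irgm1 1.57-fold lower (1.4 to 1.76) and 2.33-fold lower (2.16 to 2.53). Gbp9 alone was higher in PTIR1 than in Mock ISG macrophages, at 115 CPM in the PTIR1 and 97.5 CPM in the Mock library. As the difference between the libraries in the log2 ratio of ISG over other macrophages, PTIR1 minus Mock, all 16 were above 0, from 0.38 to 1.49, with a median of 0.92, where the median of 10313 genes was 0.03. For Gbp2 the difference was 0.89 (0.71 to 1.07) and for Gbp5 1.31 (1.05 to 1.57). Under the alternatives the median ran from -0.68 to -0.56 in ISG macrophages and from -1.47 to -1.37 in other macrophages. These comparisons share their libraries, so they are not independent of each other, and with 1 library each the difference was not tested.

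Cxcl9, Cxcl10 and Batf2, which interferon gamma induces, were also lower in the PTIR1 library, by more in other than in ISG macrophages. Cxcl9 was 1.86-fold lower (1.7 to 2.04) in PTIR1 than in Mock ISG macrophages and 4.11-fold lower (3.94 to 4.29) in other macrophages, and Cxcl10 was 1.23-fold lower (1.18 to 1.27) and 2.27-fold lower (2.18 to 2.36), with differences of log2 ratios of 1.14 and 0.89. Batf2 was 1.42-fold lower (1.09 to 1.86) in ISG and 2.58-fold lower (2.24 to 2.98) in other macrophages. Ccl5, of the same chemokine list, was lower by more in ISG macrophages, at 1.97-fold lower (1.7 to 2.29), than in other macrophages, at 1.53-fold lower (1.39 to 1.69), with a difference of -0.37 (-0.62 to -0.12). The 5 immunoproteasome genes were all lower in the PTIR1 library in both sets, 0 of them past 2-fold, with medians of -0.35 in ISG and -0.68 in other macrophages. Psmb8 had 723 CPM in PTIR1 and 900.2 CPM in Mock ISG macrophages, and 387 CPM in PTIR1 and 622 CPM in Mock other macrophages, and its difference of log2 ratios was 0.37 (0.27 to 0.47). For Psmb9 the difference was 0.48 (0.34 to 0.61). Constitutive proteasome genes had medians of -0.08 in ISG and -0.12 in other macrophages. All 12 class I genes were lower in PTIR1 than in Mock cells in both sets, with medians of -0.35 in ISG and -0.54 in other macrophages, and 0 were past 2-fold. The 8 class II genes measured in ISG macrophages were all lower as well, at a median of -0.60, against -0.55 over 9 genes in other macrophages. Without barcodes that had markers of other lineages, the class II medians were -0.27 in ISG and -0.47 in other macrophages. H2-Ab1 had 814 CPM in PTIR1 and 1343 CPM in Mock ISG macrophages, and 1000 CPM in PTIR1 and 1513 CPM in Mock other macrophages.

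**Figure D4:**
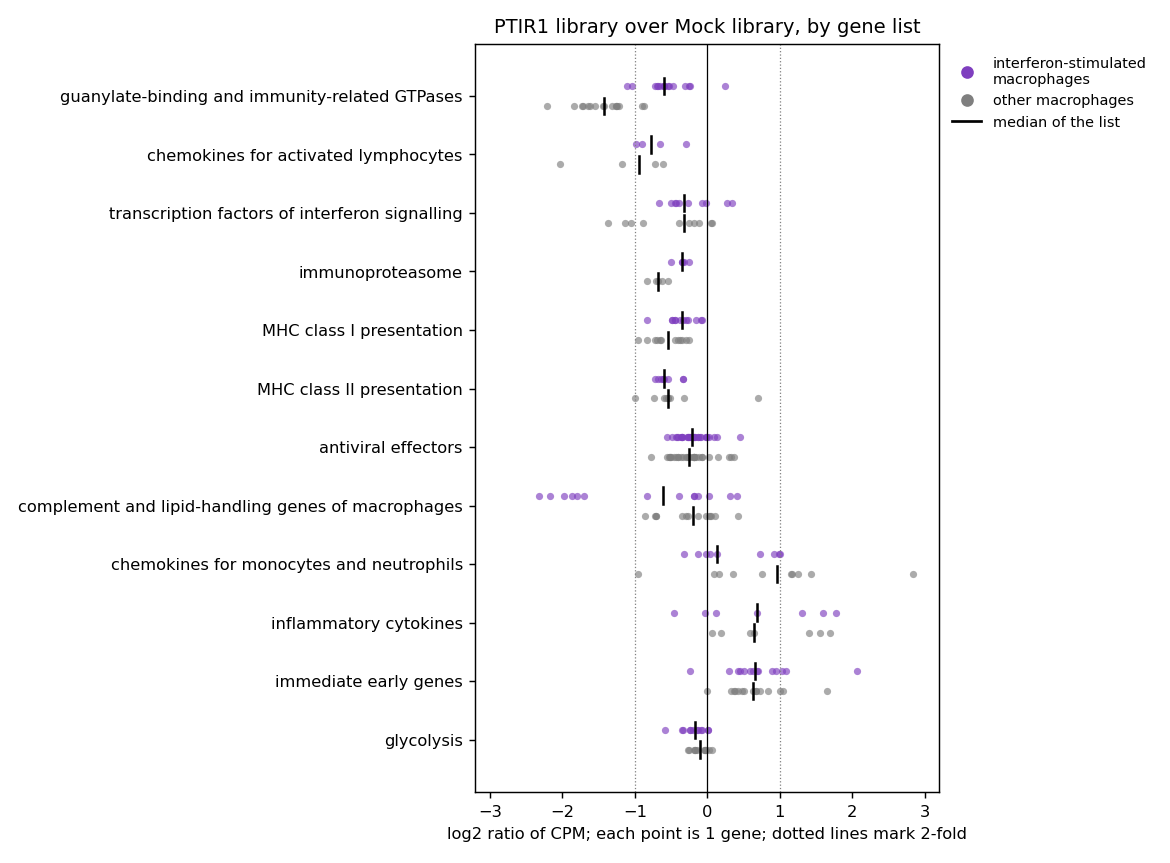
Log2 ratio of CPM, PTIR1 over Mock (horizontal axis), for each measured gene of 12 lists (rows), in ISG macrophages (upper points of a row) and other macrophages (lower points), with the list medians as black bars and 2-fold as dotted lines. The GTPases have a median of -0.60 in ISG and -1.43 in other macrophages, and the antiviral effectors -0.21 in ISG and -0.26 in other macrophages.

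Several macrophage products were lower in PTIR1 than in Mock ISG macrophages by more than in other macrophages. Of 14 complement and lipid-handling genes, 6 were past 2-fold lower in ISG macrophages and 0 in other macrophages, where 1.18% and 0.888% of all genes were, with medians of -0.61 and -0.20. C1qa had 73.7 CPM in PTIR1 and 256 CPM in Mock ISG macrophages, and 300.1 CPM in PTIR1 and 496 CPM in Mock other macrophages. With barcodes thinned to 2000 UMIs, the shares with a UMI of C1qa were close, at 10.6% of PTIR1 and 10.4% of Mock ISG macrophages. Other macrophages gave 10.3% in the PTIR1 and 10.8% in the Mock library. Fabp5, a fatty acid binding protein, had 169 CPM in PTIR1 and 759 CPM in Mock ISG macrophages, and 162 CPM in PTIR1 and 296 CPM in Mock other macrophages. Gpnmb, a glycoprotein of lipid-laden macrophages, had 37.3 CPM in PTIR1 and 136 CPM in Mock ISG macrophages, and 23.8 CPM in PTIR1 and 24.2 CPM in Mock other macrophages. A UMI of Gpnmb was found in 13 of 123 PTIR1 and 25 of 183 Mock ISG macrophages. The 3 barcodes with most of it held 73% of its UMIs in the PTIR1 and 50% in the Mock set. The highest levels of Fabp5 and Gpnmb were in Mock ISG macrophages. With the limit of the rule at 0.05%, C1qa and C1qb were not past 2-fold, at -0.76 and -0.97, nor were they with the rule applied after thinning, at -0.81 and -0.90. Nos2 was 6.72-fold lower (4.6 to 10.1) in PTIR1 than in Mock ISG macrophages, and was found in 8 of 123 PTIR1 and 51 of 183 Mock ISG macrophages. At a depth of 2000 UMIs it was found in 0.813% of PTIR1 and 13.1% of Mock ISG macrophages, and in 0.132% of PTIR1 and 0.262% of Mock B cells. Without the barcode with most UMIs of it in each library, its log2 ratio was -4.24, against -2.75 with all barcodes.

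The other genes ranked first among those lower in PTIR1 ISG macrophages were Selenom, Anpep, Slamf7, Pou3f1 and Serpina3g. Slamf7, a receptor on macrophages and lymphocytes, had 22.7 CPM in PTIR1 and 83.3 CPM in Mock ISG macrophages, and 2.35 CPM in PTIR1 and 6.39 CPM in Mock other macrophages. Serpina3g, a protease inhibitor, had 94.9 CPM in PTIR1 and 290.3 CPM in Mock ISG macrophages, and 21.8 CPM in PTIR1 and 74.6 CPM in Mock other macrophages. The aminopeptidase Anpep had 2.52 CPM in PTIR1 and 21.5 CPM in Mock ISG macrophages, and 11.3 CPM in PTIR1 and 20.2 CPM in Mock other macrophages. The transcription factor Pou3f1 had 9.59 CPM in PTIR1 and 41.3 CPM in Mock ISG macrophages, and was under 1 CPM in other macrophages of both libraries. Slamf7 kept its value without barcodes that had markers of other lineages, at a log2 ratio of -1.92 against -1.88 with them.

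Genes ranked first among those higher in PTIR1 ISG macrophages included genes of fibroblasts and neutrophils. The fibroblast genes Dcn and Mgp, which encode matrix proteins, had 99.4 and 80.7 CPM in PTIR1 and 1.77 and 3.88 CPM in Mock ISG macrophages, and 1 barcode held 73% of the Dcn UMIs and 74% of the Mgp UMIs of the PTIR1 set. Other macrophages differed in the same direction. Dcn was found in 314 of 1336 PTIR1 and 79 of 1868 Mock other macrophages, and Mgp in 271 and 88 of them. With barcodes that had markers of other lineages left out, the log2 ratio of Dcn was 2.84, against 5.82 with them, that of Mgp 2.12, against 4.38, and that of Col1a2, a collagen gene, 1.25, against 4.13. Neutrophil-associated genes included Retnlg, with 39.4 CPM in PTIR1 and 2.47 CPM in Mock ISG macrophages, Mmp9, with 207 CPM in PTIR1 and 21.5 CPM in Mock ISG macrophages, and G0s2, with 291 CPM in PTIR1 and 39.9 CPM in Mock ISG macrophages. The neutrophil list summed to 2306 CPM in PTIR1 and 681 CPM in Mock ISG macrophages, and to 1152 and 539 CPM in other macrophages. The fibroblast list summed to 135 CPM in PTIR1 and 4.59 CPM in Mock ISG macrophages, and to 148 and 32.6 CPM in other macrophages. Both lists were higher in the PTIR1 library in both sets, and their part in these ratios was not tested. Cavin2 had 30.3 CPM in PTIR1 and 0 UMIs in Mock ISG macrophages, at least 28.6-fold higher with 3 counts as the floor. Stfa2l1, Col1a2, Cstdc4 and Wfdc21 complete the 10. Without the same barcodes, the log2 ratio of Stfa2l1 was 0.84, against 5.10 with them, that of Wfdc21 1.42, against 3.74, that of Cstdc4 4.01, against 3.33, and that of Mmp9 3.604, against 3.27. Retnlg then had too few UMIs for a value.

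Most immediate early and inflammatory genes were higher in PTIR1 macrophages of both sets. Of the immediate early genes, 13 of 14 were higher in ISG and 15 of 15 in other macrophages, 3 and 2 of them past 2-fold, and of 7 inflammatory cytokines, 3 were past 2-fold higher in ISG and 3 in other macrophages. Of all genes, 1.5% were past 2-fold higher in ISG and 3.52% in other macrophages. The medians of the immediate early genes were 0.66 in ISG and 0.63 in other macrophages, and Egr1 had 371 CPM in PTIR1 and 88.6 CPM in Mock ISG macrophages, and 366 CPM in PTIR1 and 117 CPM in Mock other macrophages. Il6 had 62.1 CPM in PTIR1 and 20.5 CPM in Mock ISG macrophages, and 29.4 CPM in PTIR1 and 10.0 CPM in Mock other macrophages, and Osm, a cytokine of the Il6 family, had 650.4 CPM in PTIR1 and 263 CPM in Mock ISG macrophages, and 627 CPM in PTIR1 and 236 CPM in Mock other macrophages. Of the 10 chemokines for monocytes and neutrophils, 5 were past 2-fold higher in PTIR1 other macrophages and 0 of 9 in ISG macrophages. Cxcl1 had 465 CPM in PTIR1 and 280.4 CPM in Mock ISG macrophages, and 627 CPM in PTIR1 and 233 CPM in Mock other macrophages.

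The genes whose ratio of ISG over other macrophages differed most between the libraries, ranked on the bound of the interval closest to 0, were Tbc1d4, Mcpt4, Tpsab1, Tpsb2, Tm4sf1 and Dcn with a larger ratio in the PTIR1 library, and Ctsk, Acp5, Nos2, Areg, Gpnmb and Inhba with a larger ratio in the Mock library. Mcpt4, Tpsab1 and Tpsb2 encode mast cell proteases, and their levels in ISG macrophages were under 5% of those in mast cells or basophils. Ctsk and Acp5 encode enzymes that osteoclasts use to resorb bone, and both stood high in 1 of the 4 sets. Ctsk had 18.2 CPM in ISG and 143 CPM in other macrophages of the PTIR1 library, and 20.8 CPM in ISG and 11.4 CPM in other macrophages of the Mock library, and Acp5 had 11.6 CPM in ISG and 104 CPM in other macrophages of the PTIR1 library, and 12.7 CPM in ISG and 18.1 CPM in other macrophages of the Mock library. Inhba, a subunit of activin, had 39.9 CPM in ISG and 69.8 CPM in other macrophages of the PTIR1 library, and 116 CPM in ISG and 58 CPM in other macrophages of the Mock library.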

How the data were processed

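The authors deposited UMI counts for each gene and barcode, made with Cell Ranger 5.0.0 per the file headers. Seurat 3.2.3 and the genome build mm10 stand in the submitters' processing notes. Which gene annotation was used is not stated there. From these counts, UMIs were summed over the barcodes of a set and scaled to a common total (CPM). Levels have exact Poisson intervals, shares exact Clopper-Pearson intervals, ratios exact conditional binomial intervals, and differences of log2 ratios normal intervals, at 95% and for counting error only. A gene needed at least 50 UMIs in the sums compared, and the 8 genes of the rule (Rsad2, Ifit1, Ifit2, Ifit3, Csf1r, Adgre1, Cd3e and Ncr1) were left out of counts over all genes. With 1 library per group no test was made, and past 2-fold means a ratio of at least 2 or at most 0.5. Genes outside the 22 lists were named by rank of the interval end nearest to no difference, 12 in each direction for ISG over other macrophages in both libraries, 10 for PTIR1 over Mock in ISG macrophages and 6 for the difference, and each had to be found in at least 5% of the barcodes of a set. Free RNA was marked as possible where a gene stood under 5% of its level in another class. The level used was that of ISG macrophages in the library where it was higher. Doublets were left in, and removed as an alternative by taking out the highest Scrublet scores (scanpy 1.11.5), 458 of 7567 PTIR1 (6.05%) and 696 of 9328 Mock barcodes (7.46%). The members and lists were chosen with earlier results of these data known. Mx1, Mx2, Sting1, Etv7 and Cxcl11 were not analysed here. The scripts ran on Python 3.11.15 with scipy 1.17.1, numpy 2.4.6, matplotlib 3.10.9 and pandas 2.3.3, and the code was tested on simulated data.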

Additional observations from a re-analysis of the deposited data

Results flagged for a closer look

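The 8 genes flagged here had ratios of ISG over other macrophages on opposite sides of 1 in the 2 libraries, intervals included. They are not all the genes with such ratios. Of 10313 genes measured in both libraries, 12 had a ratio of at least 2 in the PTIR1 and at most 0.5 in the Mock library. The reverse was found for 6 genes. None of these differences was tested, since there was 1 library per group. Each value given for the 8 genes is the log2 ratio in the PTIR1 library minus that in the Mock library. The mature dendritic cell genes Fscn1 and Ccl22 had 3.46 and 3.90, and 1 PTIR1 ISG macrophage held 97% of the Fscn1 UMIs and 50 of the 56 Ccl22 UMIs of its set. Cox6a2, a plasmacytoid dendritic cell gene, had -4.20, from 4 UMIs in PTIR1 and 30 UMIs in Mock ISG macrophages. Dcn had 2.72, with 144 of 197 UMIs of the PTIR1 set in 1 barcode. Areg had -2.51, from 21 UMIs in PTIR1 and 26 UMIs in Mock ISG macrophages, and Tbc1d4 had 4.32, from 55 and 3 UMIs. Mcpt4 had 3.01, and its level in ISG macrophages was under 5% of that in mast cells or basophils. Ctsk had -3.85, with 36 UMIs in 14 barcodes of PTIR1 and 59 UMIs in 23 barcodes of Mock ISG macrophages.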

How the results depend on the processing

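No paired analysis was possible because there was 1 library per group. The log2 ratio of the ISG share, PTIR1 over Mock, ran from -0.26 to 0.02 over all alternatives, and no count of genes past 2-fold in both directions together moved by over 1.5 times except with the minimum of UMIs. Counted in 1 direction, the 103 genes higher in PTIR1 than in Mock ISG macrophages were 68 without other lineages, 62 with dendritic cell markers left out too, 62 with the rule applied to part of the UMIs and levels taken from the rest and 68 with at least 5 UMIs of Csf1r and Adgre1. The 932 genes lower in ISG macrophages of the PTIR1 library were 605 with the limit at 0.05%. With at least 200 UMIs per gene in place of 50, 604 genes were past 2-fold for ISG over other macrophages in the PTIR1 library and 829 in the Mock library, and with at least 1 UMI 6686 and 6762, against 1397 and 1630. For PTIR1 over Mock in ISG macrophages the counts were 51 and 3955, against 184. With barcodes that had markers of other lineages left out, the log2 ratio of Lgals7 in the Mock library was 0.0013. Of the 12 genes named as lower in ISG macrophages, 12 of 12 with a value kept their direction in the PTIR1 and 8 of 9 in the Mock library under every alternative. Of the genes named for PTIR1 over Mock, 8 of 9 with a value among the higher and 8 of 10 among the lower stayed past 2-fold under every alternative that gave a value. Among these, Retnlg had no value without other lineages, and Dcn none with at least 5 UMIs of Csf1r and Adgre1. Values of named genes under the alternatives were not held to the minimum of 50 UMIs, so some rest on few UMIs. Values of cell cycle genes are limited by depth, since most had under 10 CPM in ISG macrophages. An alternative that left out barcodes with dendritic cell markers, and another that left out the barcode with most UMIs of a gene, were chosen after seeing the data.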

Other observations

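Barcodes of other cell classes also passed the limit of 0.1%. Neutrophils stood out, with 17 of 180 in the PTIR1 library (9.44%, 5.60 to 14.7%) and 37 of 107 in the Mock library (34.6%, 25.6 to 44.4%), at median depths of 3454.5 and 3465 UMIs. A neutrophil of such a depth passes the limit with fewer gate UMIs than a macrophage, and no test of the difference was made. T cells passed it in 11 of 171 PTIR1 and 5 of 254 Mock barcodes, NK cells in 10 of 532 and 6 of 502, and fibroblasts in 15 of 773 and 2 of 158. B cells passed it in 2 of 756 PTIR1 barcodes (0.265%) and 0 of 382 Mock barcodes, which allows a share of up to 0.961% by the exact interval.

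Kdr, which encodes a receptor for vascular endothelial growth factor, was singled out after its values were seen. It had 36.8 CPM in ISG and 3.61 CPM in other macrophages of the PTIR1 library, and 76.6 CPM in ISG and 6.42 CPM in other macrophages of the Mock library. A UMI was found in 27 of 123 ISG and 61 of 1336 other PTIR1 macrophages, and in 53 of 183 ISG and 109 of 1868 other Mock macrophages. At a depth of 2000 UMIs these shares were 7.32% of ISG and 0.599% of other PTIR1 macrophages, and 9.29% of ISG and 0.964% of other Mock macrophages, with 0.265% of PTIR1 and 0% of Mock B cells. Of the 5 endothelial markers, Kdr, Pecam1 and Cdh5 were above 0 and Cldn5 and Plvap at 0 in ISG macrophages of both libraries. The list, with Kdr in it, summed to 73.2 CPM in ISG and 36.3 CPM in other macrophages of the PTIR1 library. In the Mock library it summed to 111.9 CPM in ISG and 33.8 CPM in other macrophages. An endothelial source of these UMIs was not tested.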
